A study of Mus musculus with 24 samples.

Results

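The NRF2 antioxidant response genes described here are 9 genes taken by symbol from a count table of 55487 genes: Nfe2l2, Keap1, Nqo1, Hmox1, Gclc, Gclm, Txnrd1, Srxn1 and Gstm1. Each symbol matched 1 row, and all 9 genes were among the 18339 that had enough counts to be tested. The kidneys came from 24 male mice that all carried X-linked Alport syndrome (XLAS), a hereditary glomerular disease caused by mutation of the collagen gene Col4a5. The mice were on the B6 background and 15 weeks old. They differed in Nbl1, the gene of a secreted antagonist of bone morphogenetic proteins: 13 were labelled HET and 11 WT. Bulk RNA sequencing was run in 2 batches. Batch 1 held 6 mice of each genotype, and batch 2 held 7 HET animals beside 5 WT ones. Every mouse had XLAS, so no healthy kidney stands beside these values, and the Col4a5 and Nbl1 alleles are not described in the sources used here. In whole kidney, a difference in RNA per cell cannot be told apart from a difference in the number of cells of a type.

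NRF2, the product of Nfe2l2, is a transcription factor that is kept low by KEAP1, an adaptor that presents it to a CUL3 ubiquitin ligase for degradation. Electrophiles and oxidants modify cysteines of KEAP1, NRF2 then accumulates, pairs with a small MAF protein and binds antioxidant response elements near its target genes. The control is therefore largely at the level of the protein, and the activity of the pathway is usually read from the targets. In the kidney the pathway is known mainly for protecting tubule cells against ischaemic and toxic injury.

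The remaining 7 genes are classical targets. GCLC and GCLM are the catalytic and modifier subunits of glutamate-cysteine ligase, the first step of glutathione synthesis. TXNRD1 is the cytosolic thioredoxin reductase, and SRXN1 (sulfiredoxin) restores over-oxidised peroxiredoxins. NQO1 reduces quinones, GSTM1 conjugates glutathione to electrophiles, and HMOX1 degrades heme. In mice Hmox1 is also abundant in macrophages that clear red cells.

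On GRCm38 the genes lie on 5 chromosomes. Nfe2l2 spans chr2:75675513-75704641 on the minus strand and Srxn1 chr2:152105516-152111376 on the plus strand. Keap1 lies at chr9:21229730-21239361, minus strand, and Gclc at chr9:77754535-77794485, plus strand. Nqo1 lies at chr8:107388225-107403206, minus strand, and Hmox1 at chr8:75093621-75100589, plus strand. Gclm lies at chr3:122245557-122270732, plus strand, Gstm1 at chr3:108012255-108017973, minus strand, and Txnrd1 at chr10:82833951-82897712, plus strand. The Gstm1 counts are the least certain: 23.1% of the 50-base stretches of its longest coding transcript also occur in other genes, 17.3% in the pseudogene Gstm2-ps1. For Gclm that share was 0.776%, and its exons also overlap those of Gm17494 on the opposite strand and of the pseudogene Gm6061. Keap1 shares 510 exonic bases with the antisense gene Gm16754, and no source used here gives the strand setting of the counting. The other 6 genes had no such overlap.

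Antioxidant response elements hold the core letters TGACNNNGC. RefSeq promoter entries on GRCm38.p6 were matched for 7 of the 9 genes, 10 promoters in all, and the 250 bases upstream of each start were searched on both strands. The core stood in 3 of the 10, those of Nfe2l2, Gclm and 1 of 3 for Txnrd1, against 10.2% of 32851 promoters of the same length. The looser letters TGANNNNGC, adopted after the Srxn1 promoter had been read, stood in 6 of 10 against 35.2%. That promoter is among the 10, so this comparison is not a test. The 10 are not separate either, since 3 belong to Txnrd1 and the 2 of Gstm1 overlap. Promoters of Srxn1, Txnrd1 and Gclm are shown because the RNA level of Txnrd1 was correlated with those of the other 2 across mice. Capitals mark every TGANNNNGC match on either strand.
Srxn1, chr2:152105274-152105523, plus strand: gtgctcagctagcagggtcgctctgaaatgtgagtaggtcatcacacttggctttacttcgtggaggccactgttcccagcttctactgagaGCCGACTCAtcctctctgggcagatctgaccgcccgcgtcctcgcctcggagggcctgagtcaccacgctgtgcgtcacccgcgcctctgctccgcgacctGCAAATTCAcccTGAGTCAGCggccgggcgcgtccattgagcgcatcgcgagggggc
Txnrd1, promoter 2, chr10:82858956-82859205, plus strand: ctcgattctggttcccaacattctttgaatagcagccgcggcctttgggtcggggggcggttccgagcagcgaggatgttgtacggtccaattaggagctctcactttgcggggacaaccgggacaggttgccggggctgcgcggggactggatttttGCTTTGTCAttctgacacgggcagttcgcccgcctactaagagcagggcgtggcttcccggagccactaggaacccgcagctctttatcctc
Gclm, chr3:122245307-122245556, plus strand: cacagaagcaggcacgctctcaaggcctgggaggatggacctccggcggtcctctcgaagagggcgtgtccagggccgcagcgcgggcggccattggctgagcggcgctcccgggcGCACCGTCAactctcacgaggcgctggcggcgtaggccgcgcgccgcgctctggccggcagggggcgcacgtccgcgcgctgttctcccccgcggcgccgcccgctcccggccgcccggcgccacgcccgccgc
In Srxn1 the match nearest the start, TGAGTCAGC at 45 bases upstream, also holds the AP-1 letters TGAGTCA. The Txnrd1 and Gclm matches, at 92 and 134 bases upstream, lie on the opposite strand and hold the full core. A match of letters does not show a bound site.

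The libraries held 29551337 to 33019871 counts in batch 1 and 36380374 to 50746652 in batch 2, so counting error was small for all 9 genes. The targeted gene, Nbl1, averaged 5.32 ± 1.68 CPM (SD, n = 13; CPM is the count scaled to a common library total) in HET and 8.42 ± 3.15 (n = 11) in WT. That log2 difference of -0.67 (SE 0.17) had p = 0.00081 and did not pass adjustment over all genes (edgeR quasi-likelihood, adjusted p = 0.997). In batch 1, HET replicate 6 held 9.24 CPM of Nbl1, above every WT mouse of that batch, and WT replicates 1 and 2 held 5.41 and 3.62 CPM, below the 6.996 CPM or more of the other WT mice. WT replicate 2 also lay below every HET mouse of batch 1. WT replicate 1 lay above HET replicates 1 to 5, which held 4.89 CPM or less, so it stood between the labels. In batch 2, HET replicate 8 held 7.82 CPM, above WT replicate 11, and was not set aside. The 3 libraries, HET replicate 6 and WT replicates 1 and 2, were picked by their Nbl1 and Htr6 values. Several results below are also given without them. Proximal tubule markers summed to 11136 to 14636 CPM over all mice, and all 10 listed markers were among the genes tested.

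Measured per length, as the deposited FPKM (fragments scaled by transcript length and library total), the 9 genes kept 1 order in both batches (plot of CPM by mouse). Gstm1 was highest at 279.9 ± 26.1 FPKM in batch 1 and 325 ± 49.8 in batch 2 (SD, n = 12 each). Gclm followed at 162 and 183 FPKM and Gclc at 85.5 and 98.2. In FPKM the modifier subunit was thus above the catalytic subunit in 12 of 12 mice of each batch. That order rests on the lengths used for the deposited FPKM. In CPM, Gclc averaged 293 and Gclm 272 over all 24 mice. The longest coding transcript is 5589 bases for Gclm and 3423 for Gclc. These values do not settle which subunit had more mRNA. Txnrd1 stood at 68.2 and 67.6 FPKM. The transcription factor gene Nfe2l2 stood at 36.3 and 38.8 FPKM and its target Nqo1 at 35.7 and 37.8. Srxn1 was at 21.3 and 23.8 FPKM and Hmox1 at 17.4 and 21.4. Keap1 was lowest at 10.9 ± 0.605 and 10.8 ± 1.25 FPKM. Neighbours in this order overlapped in range for Gclc and Txnrd1, Nfe2l2 and Nqo1, and Srxn1 and Hmox1 in both batches. Gclm and Gclc overlapped in batch 2 only, and the other neighbours did not overlap.

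**Figure D1:**
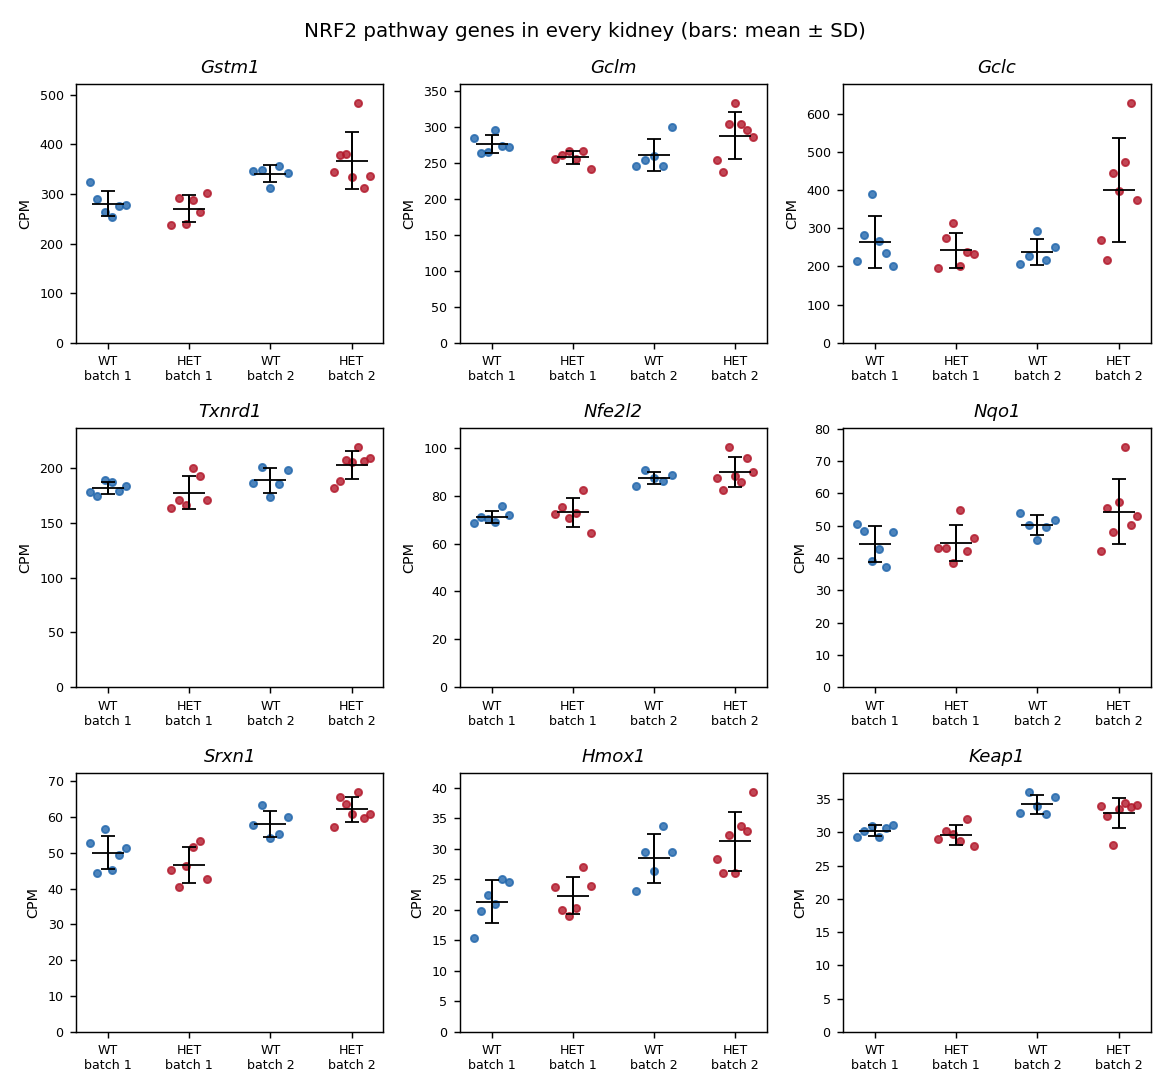
Level of each of the 9 genes in every kidney (y axis: CPM, from 0; x axis: genotype and batch; points: mice; bars: mean ± SD). Gclc spreads from 195 to 629 CPM, while Keap1 stays between 27.9 and 36.1 CPM.

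How far mice of the same genotype and batch differed varied strongly between the genes. Gclc had a within-group SD of 0.37 on the log2 scale, against a median of 0.0848 for the 500 genes nearest to it in level, and its highest mouse held 3.23 times the CPM of its lowest. Hmox1 had an SD of 0.22 with a ratio of 2.57, Nqo1 0.19 with 2.00 and Gstm1 0.15 with 2.03. Srxn1, Gclm, Txnrd1, Nfe2l2 and Keap1 had SDs of 0.12, 0.11, 0.090, 0.085 and 0.074. The 2 regulators thus had the smallest SDs of the 9, with Txnrd1 close to Nfe2l2. For the 500 genes nearest in level, the median SD was 0.084 for Nfe2l2 and 0.094 for Keap1.

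All 9 genes were higher in batch 2 than in batch 1 as fitted values, and 7 passed the threshold (adjusted p under 0.05), with Gclc and Gclm outside it. The batches differed in 63.5% of all genes tested (32.6% higher in batch 2), so batch was kept in every fit and results are also given within batch. Hmox1 differed by 0.45 on the log2 scale (SE 0.084), Gstm1 by 0.37, Srxn1 by 0.32, Nfe2l2 by 0.30, Nqo1 by 0.23, Keap1 by 0.16 and Txnrd1 by 0.13. Over all genes the median difference was 0.027. On the deposited FPKM scale, whose totals differ between the batches, Keap1 and Txnrd1 had slightly lower means in batch 2.

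The first comparison asked whether the HET label for Nbl1 changed the pathway in XLAS kidneys. Over all mice none of the 9 genes differed between HET and WT (edgeR quasi-likelihood; adjusted p of 0.997 for each), and none of the 18339 genes tested was called (0%). At an unadjusted p under 0.05 there were 0 of the 9, against 4.12% of all genes, and DESeq2 and limma-voom also called 0 of the 9. Gclc had the widest difference, 0.30 on the log2 scale (SE 0.18, 95% interval -0.07 to 0.67). The other 8 genes had differences between -0.04 for Keap1 and 0.10 for Hmox1, and the intervals of Nfe2l2 and Txnrd1 ended at 0.11. Over the 9 genes 7 differences were positive and the median was 0.03, against 0.0098 over all genes. Of 52 other pathway genes tested, 34 were positive, and only the glutathione transferase gene Gstm6 had p under 0.05, at -0.24 (p = 0.042).

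Within batch 2, Gclc had the largest difference of the 9 genes. The 5 WT mice held 205.6, 227.2, 292.4, 216.6 and 252.2 CPM, and the 7 HET mice 269.5, 215.7, 445.0, 397.7, 474.4, 629.1 and 375.2 CPM. Of the 7 HET mice 5 lay above every WT mouse, and the groups overlapped through the other 2. The fitted difference was 0.73 on the log2 scale (SE 0.24, 95% interval 0.20 to 1.25), with p = 0.011 and adjusted p = 0.579, so it did not pass. An exact two-sided permutation test over the 12 mice gave p = 0.0265. Over all genes 1 passed in this batch (0.00545%), Htr6, which is named for being the only one. At an unadjusted p under 0.05 there was 1 of the 9 genes, against 8.34% of all genes in this batch. The other 8 genes differed by -0.08 (Keap1) to 0.12 (Gclm) on the log2 scale.

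In batch 1 the Gclc groups lay on top of each other. The 6 WT mice ranged from 201 to 390.3 CPM (median 250.03) and the 6 HET mice from 195 to 315 CPM (median 235), a difference of -0.13 (SE 0.18). The other subunit, Gclm, had the only p under 0.05 in this batch, against 2.78% of all genes (0% passed): its difference was -0.10 (SE 0.037, p = 0.018, adjusted p = 1, exact permutation p = 0.013). Gclm CPM were 256.4, 261.3, 267.5, 255.8, 266.8 and 242.5 in HET and 285.7, 264.6, 266.0, 296.2, 274.1 and 273.0 in WT. The HET mice were the lower ones, with an overlap between 264.6 and 267.5 CPM.

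The difference between the batches in the HET effect was tested as an interaction. It was 0.87 for Gclc (SE 0.30, p = 0.0087), 0.24 for Gclm (SE 0.087, p = 0.010) and 0.20 for Srxn1 (SE 0.090, p = 0.035), each with an adjusted p of 0.557 to 0.599. No gene passed this test, and 8.20% of all genes had an unadjusted p under 0.05, and 3 of the 9 did.

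**Figure D2:**
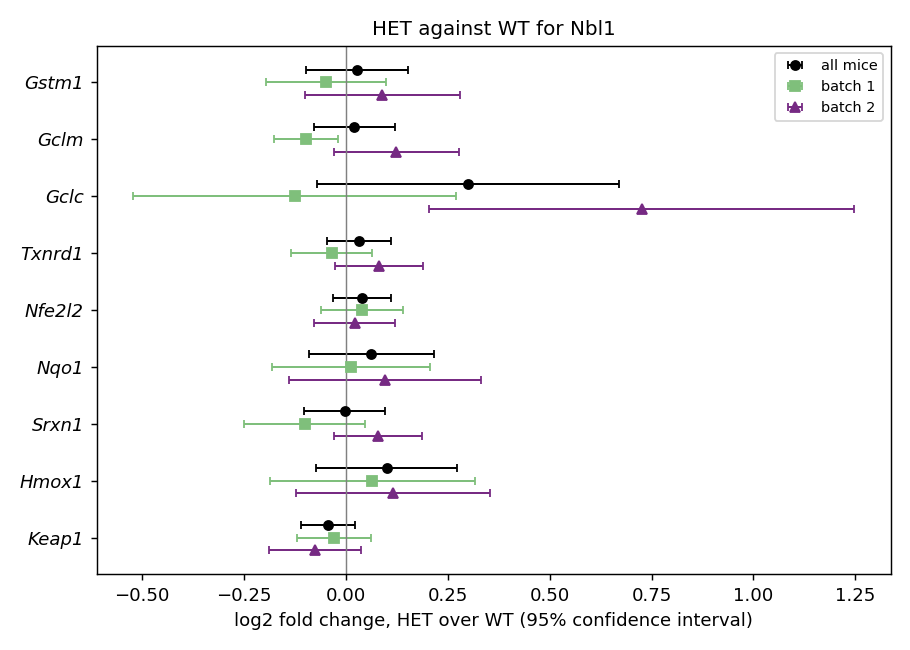
HET over WT for each gene over all mice and within each batch (x axis: log2 fold change; bars: 95% confidence intervals). Only the batch 2 interval of Gclc (0.20 to 1.25) and the batch 1 interval of Gclm (-0.18 to -0.02) leave out 0, and neither passed adjustment.

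Some markers of other cells shifted together beside Gclc in batch 2, but no marker was called. All 5 erythrocyte markers were higher in HET as fitted values (median 0.51 on the log2 scale, 0 called), with summed levels of 329 to 961 CPM in HET and 261 to 659.6 CPM in WT. All 5 adipose markers were lower (median -0.75, 0 called), though their summed ranges nearly coincided. They were 3.89 to 55.5 CPM in HET and 3.33 to 54.7 CPM in WT, but the medians lay apart, at 14.7 and 43.4 CPM. Thick ascending limb and distal tubule markers summed to 5649 to 6583 CPM in HET and 5156 to 5748 CPM in WT. HET replicate 12 had both the highest Gclc and the highest erythrocyte score of the 24 mice. Over all mice, the slope of Gclc on the erythrocyte score was 0.19 log2 units per SD (SE 0.082, p = 0.033, adjusted p = 0.299). All 5 adipose markers had negative slopes on the Gclc level, each with an unadjusted p under 0.05. Of all 18338 genes tested along Gclc, 3815 had such a p in either direction. The part of these cells in the Gclc difference was not tested.

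The second question was how the pathway related to tubular injury. Each mouse was given an injury score, the mean log2 CPM of 13 injury genes led by Havcr1 (KIM-1) and Lcn2 (NGAL), centred within batch and expressed in SDs. None of the 9 genes passed for a slope on this score (edgeR quasi-likelihood), against 1.23% of all genes, and DESeq2 and limma-voom also called none. At an unadjusted p under 0.05 there were 2 of 9, against 11.8% of all genes. Nqo1 had a slope of -0.08 log2 units per SD of injury (SE 0.035, p = 0.031, adjusted p = 0.336) and Gstm1 one of -0.06 (SE 0.030, p = 0.049, adjusted p = 0.417). Neither stayed under that unadjusted p without the 3 libraries (edgeR p = 0.070 and p = 0.112), without a filter on low counts or on the TPM scales, and with 1 library left out the largest p was 0.090 for Nqo1 and 0.185 for Gstm1. The slope of Havcr1 itself, which is part of the score, was 0.49. Hmox1 and Gclc had slopes of 0.03 (SE 0.045) and 0.0034 (SE 0.096), and the other 5 genes lay between -0.03 and -0.0048. The Gclc slope differed in sign between the batches, at 0.11 (SE 0.095) in batch 1 and -0.07 (SE 0.12) in batch 2. So did that of Gclm, at 0.02 (SE 0.019) in batch 1 and -0.07 (SE 0.034) in batch 2.

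Nqo1 had a negative correlation with the score of the same size in both batches, and Gstm1 a larger one in batch 1 than in batch 2. The Pearson correlation of Nqo1 with injury was -0.41 over 24 mice (permutation p = 0.052; Spearman rho -0.42, p = 0.048) and -0.41 within each batch. For Gstm1 it was -0.73 in batch 1 (permutation p = 0.0076; rho -0.71, p = 0.013) and -0.16 in batch 2 (permutation p = 0.652), out of 27 relations computed. Without the 2 mice farthest from the median score the batch 1 value of Gstm1 was -0.56, and the Nqo1 value over all mice was -0.37. The fitted Gstm1 slope in batch 1 was -0.10 (SE 0.027, p = 0.0021, adjusted p = 0.259). No gene of the whole table passed a test of the difference in injury slope between batches, where 4.20% had an unadjusted p under 0.05.

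**Figure D3:**
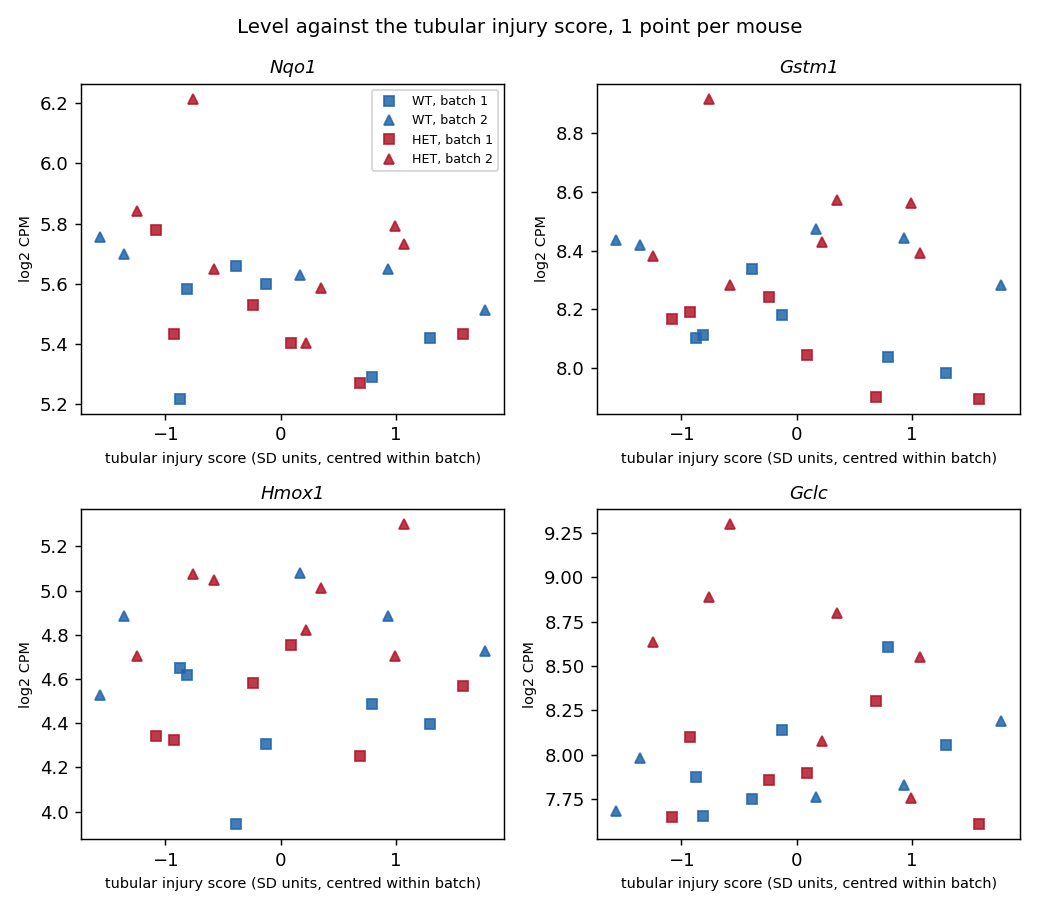
Level (y axis: log2 CPM) against the tubular injury score (x axis: SD units within batch) for 4 genes, 1 point per mouse. The correlation is -0.41 in each batch for Nqo1 and -0.73 in batch 1 for Gstm1, and the slopes of Hmox1 and Gclc over all mice are 0.03 and 0.0034.

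Most other pathway genes had a slope of the same sign as Nqo1. Of 52 tested, 43 had a negative slope on injury, with a median of -0.022 against -0.0059 over all genes, and 12 had an unadjusted p under 0.05 downwards, against 5.66% of all genes. Among them were Gss and Gsr of glutathione synthesis and recycling at -0.05 (SE 0.017) and -0.06 (SE 0.020), the transferase genes Gstm4 at -0.09 and Gsta3 at -0.08, and the exporter Abcc2 at -0.06. None of these passed (adjusted p of 0.149 or more). Within batch 43 of 52 were negative in batch 1 and 31 in batch 2, and without the 3 libraries 38 over all mice. The one gene that passed went up: Akr1b8, an aldo-keto reductase gene at a mean of 3.91 CPM, had a slope of 0.17 (SE 0.045, adjusted p = 0.049983), with an adjusted p of up to 0.62 under the alternative settings and no call in 12 of 24 fits with 1 library left out.

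Proximal tubule markers had injury slopes of the same sign as these genes: 10 of 10 had a negative slope, 6 with an unadjusted p under 0.05 and 0 called. Along the proximal tubule score itself, Nqo1 had a slope of 0.09 per SD (SE 0.035, p = 0.018), Gstm1 of 0.07 (SE 0.029, p = 0.021) and Txnrd1 of 0.04 (SE 0.019, p = 0.037), each with an adjusted p of 0.282 or more, and 47 of the 52 other pathway genes had positive slopes. Macrophage markers had positive slopes on injury in 7 of 7, with 5 called, and the Hmox1 slope on the macrophage score was 0.04 (SE 0.044, p = 0.332). With the proximal tubule score as a covariate, 10 genes of the whole table passed in place of 225, none of them among the 9, and the Nqo1 slope was -0.04 (SE 0.052) over all mice and 0.0036 in batch 2.

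The 9 genes did not move as 1 block across mice. Of their 36 pairs, 28 had a positive correlation of batch-centred log2 CPM, but only 15 were positive in both batches, and the median r was 0.18. The strongest pair was Txnrd1 with Srxn1, both of the thioredoxin system, at r = 0.68 (permutation p = 0.00027; rho 0.68) with 0.68 and 0.75 in batches 1 and 2. Nqo1 with Gstm1 had r = 0.68 (permutation p = 0.0017; rho 0.47), 0.61 and 0.73 by batch, and 0.46 without 2 mice. Gclc with Gclm had r = 0.63 (permutation p = 0.0051; rho 0.69), which came from batch 2 (0.77) and not batch 1 (0.10). Gclm with Txnrd1 had r = 0.57 (permutation p = 0.0058; rho 0.55), with 0.25 and 0.73 by batch. These are 4 of 36 relations, and all levels share the same library scaling.

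Over all mice, the mRNA of the transcription factor had a positive correlation with 5 of its 7 targets and a negative one with the other 2. Nfe2l2 had r = 0.43 with Hmox1 (permutation p = 0.043), and 0.20 to 0.37 with Srxn1, Gclc, Gclm and Txnrd1 (permutation p of 0.079 or more). In batches 1 and 2, r was -0.10 and 0.64 with Gclc, and 0.08 and 0.53 with Gclm. It was 0.42 and 0.44 with Hmox1, 0.31 and 0.44 with Txnrd1, and 0.26 and 0.10 with Srxn1. Nfe2l2 had r = -0.28 with Nqo1 (permutation p = 0.189) and -0.23 with Gstm1. With Keap1 it had r = 0.74 in batch 1 and -0.44 in batch 2, where HET replicate 9 held the lowest Keap1 (28.1 CPM) and the highest Nfe2l2 (100.2 CPM). Over all mice that r was 0.047, and 0.53 without the 2 mice farthest from the median. The fitted slope of Nfe2l2 on the Keap1 level was 0.0089 per SD of Keap1, and 0.06 without HET replicate 9 (SE 0.014, edgeR p = 0.00032, adjusted p = 0.352).

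**Figure D4:**
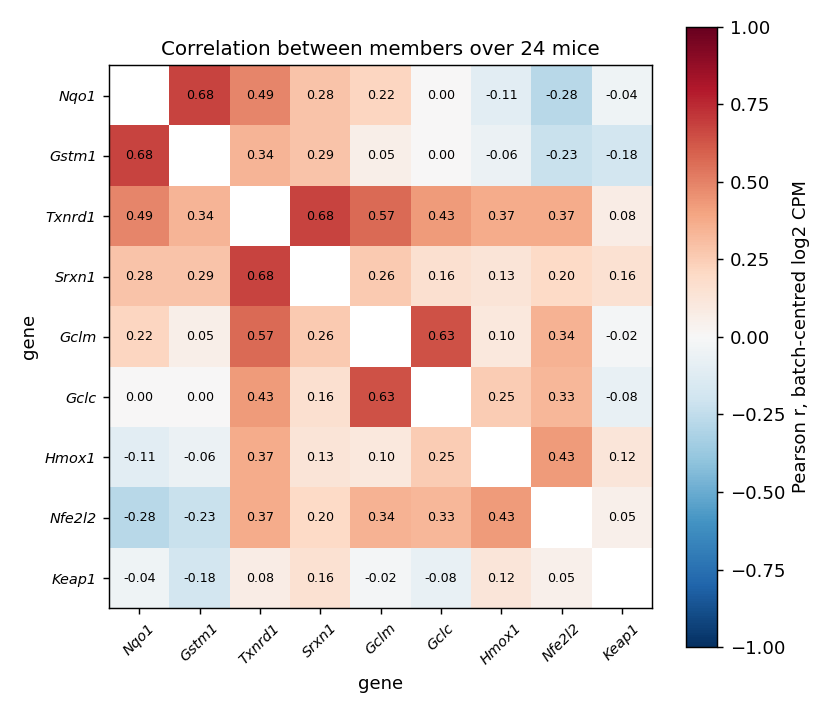
Pearson correlation between the 9 genes over 24 mice, from log2 CPM centred within batch (both axes: genes; colour and number: r). Nqo1 with Gstm1 and Txnrd1 with Srxn1 reach 0.68 and Gclc with Gclm 0.63, while Nfe2l2 with Nqo1 lies at -0.28.

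To see what else moved with each gene, the level of that gene, in SDs within batch, was used as a covariate beside batch and genotype and every other gene was tested. These fits were added after the pair correlations had been seen. With Nqo1, 2 of 18338 genes passed (0.0109%), and both encode glutathione transferases. Gsta3, an alpha class enzyme, rose by 0.14 log2 units per SD of Nqo1 (SE 0.022, adjusted p = 0.0052). Gstp1, the pi class enzyme, rose by 0.11 (SE 0.019, adjusted p = 0.0095). Gstm1 followed at 0.10 with p = 9.4e-05 but did not pass (adjusted p = 0.298), except with DESeq2 (adjusted p = 0.047), where 10 genes passed in all.

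Most other pathway genes also had positive slopes along Nqo1. Of the 52 other pathway genes 45 had positive slopes and 14 an unadjusted p under 0.05 upwards, against 1.83% of all genes. Glutathione transferase genes were positive in 10 of 12, with 5 at an unadjusted p under 0.05: Gsta3, Gstp1, Gstm4, Gsta2 and Gsta4. Reads of Gsta2 are uncertain, since Gsta1 is nearly identical to it. All 9 genes of the thioredoxin, peroxiredoxin and NADPH list were positive, among them Pgd at 0.06 and Idh1 at 0.06, enzymes that regenerate NADPH. Of the 12 detoxification and export genes 11 were positive, including Ugdh at 0.07, Abcc4 at 0.20 and Abcc2 at 0.07. Within batch, 41 of 52 were positive in each, with 15 and 9 at an unadjusted p under 0.05. No gene of the whole table passed within a single batch, where 5.67% and 2.68% had an unadjusted p under 0.05. All 13 tubular injury genes had negative slopes on Nqo1 (0 called), and 9 of 10 proximal tubule markers positive ones, 1 with an unadjusted p under 0.05.

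One mouse carried the calls. HET replicate 11 had the highest Nqo1 (74.2 CPM, others 37.2 to 57.3) and the highest Gstm1 (484 CPM, others 238 to 381). Without it no gene passed on the Nqo1 level; Gsta3 had a slope of 0.11 (p = 8.0e-05, adjusted p = 0.184) and Gstp1 0.06 (p = 0.0014, adjusted p = 0.775). The direction of the 52 other pathway genes did not rest on this mouse. Without it 45 of 52 were again positive, and 11 (21.2%) had an unadjusted p under 0.05 upwards, against 2.86% of all genes. Of the 8 NRF2 antioxidant response genes other than Nqo1, 4 were positive and 4 negative without it. Without the 3 libraries set aside above, both transferase genes passed. A slope is per SD of the mice in the fit, so it also changes as that SD changes.

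The Gstm1 level gave nearly the same picture. Gstp1 was the 1 gene that passed (0.00545%), at 0.11 per SD (SE 0.019, adjusted p = 0.0248), with Gsta3 at 0.13 (adjusted p = 0.0534) and Nqo1 at 0.13 (adjusted p = 0.177). Of the 52 other pathway genes 44 were positive and 26 had an unadjusted p under 0.05 upwards, against 3.61% of all genes. Without HET replicate 11 these were 44 and 19 (36.5%, against 4.11% of all genes), and Gstp1 did not pass (0.06, adjusted p = 0.506). It did not pass without HET replicate 3 or WT replicate 9 either, and passed in the other 21 of 24 fits. Without HET replicate 11, of the 8 genes of the 9 other than Gstm1, 3 were positive and 5 negative. Gstm1 belongs to the mu class, whose genes are similar in sequence, and Gstp1 and Gsta3 to other classes.

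Along the levels of Gclc and Gclm, more genes of the whole table passed than along any of the other 7. With the Gclc level 726 genes passed (3.96%), and among the 9 only Gclm did, at 0.09 per SD (SE 0.022, adjusted p = 0.025). That call was lost in 7 of the 24 fits that left out 1 library each. Of the 52 other pathway genes 20 were positive, and 2 passed, a share close to the 3.96% of all genes. Both went upwards: Cul3, the ligase scaffold that KEAP1 serves, at 0.07, and Me1, the NADP malic enzyme, at 0.08. Glutathione transferase genes were positive in 3 of 12, against 10 of 12 along Nqo1. Leaving out HET replicate 8 lowered the 726 genes to 306. Without the 3 libraries 395 genes passed; Gclm was among them (adjusted p = 0.048), and none of the 52 other pathway genes was.

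**Figure D5:**
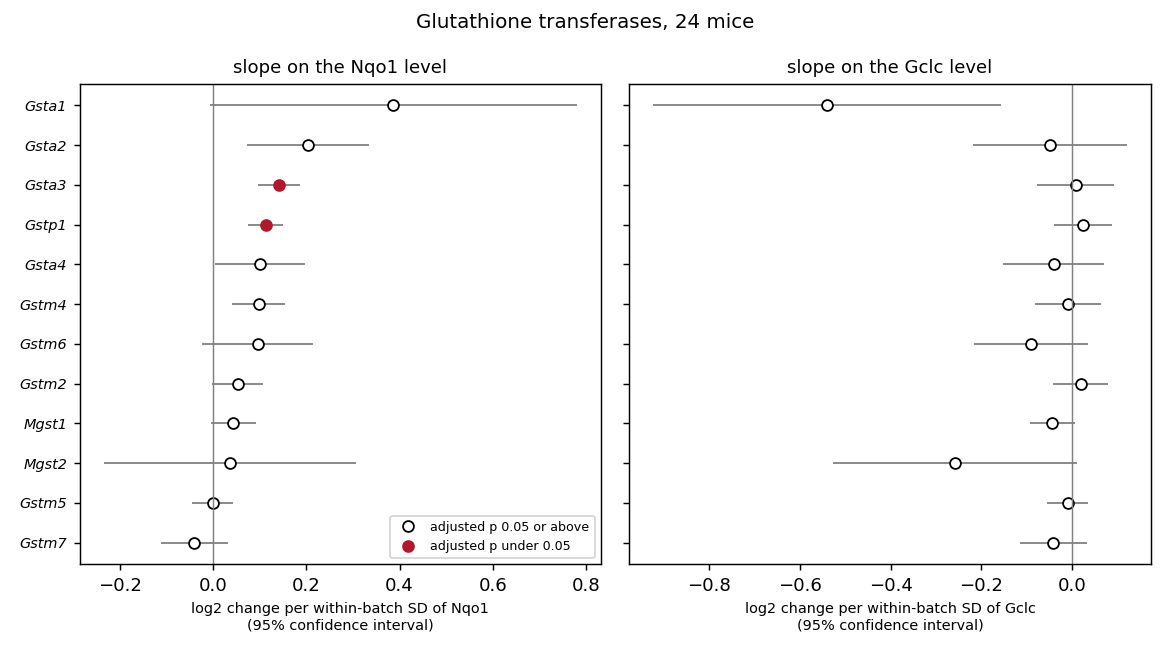
Slopes of 12 glutathione transferase genes on the Nqo1 level (left) and on the Gclc level (right) over 24 mice (x axis: log2 change per SD within batch; bars: 95% confidence intervals; filled: adjusted p under 0.05). On Nqo1, 10 of 12 are positive and Gsta3 and Gstp1 pass; on Gclc, 3 of 12 are positive and none passes.

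With the Gclm level 1802 genes passed (9.83%). Gclc rose by 0.28 per SD (SE 0.075, adjusted p = 0.023) and Txnrd1 by 0.05 (SE 0.017, adjusted p = 0.047). With 1 library left out Gclc passed in 18 of 24 fits and Txnrd1 in 1 of 24. Without the 3 libraries neither passed (adjusted p = 0.059 and 0.153), and 887 genes did. Of the other pathway genes Cul3, Gss, Prdx1, Me1 and Fth1 passed upwards and the aldehyde oxidase gene Aox1 downwards, which is 6 of 52 against 9.83% of all genes. Leaving out HET replicate 6 lowered the count of all genes to 731.

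Along the levels of the remaining 5 genes, none of the 9 passed with edgeR. With Txnrd1 no gene passed (edgeR quasi-likelihood; 9.72% at an unadjusted p under 0.05); Srxn1 had a slope of 0.09 per SD (SE 0.020, p = 0.00016, adjusted p = 0.231; with DESeq2 0.026, as 1 of 17 genes), and 42 of 52 other pathway genes were positive, 14 with an unadjusted p under 0.05 upwards against 5.70%. With Srxn1, 40 of 52 were positive, 8 of them under that p against 2.74%, and Elovl2, a fatty acid elongase gene, was the 1 gene that passed (0.00545%) at 0.17. No gene passed along Srxn1 without the 3 libraries, nor in fits without single libraries such as HET replicate 1. With Hmox1, 3 genes passed (0.0164%): the unannotated Gm20634 at 0.27, Hspa8, a constitutive HSP70 chaperone gene, at 0.23, and the small GTPase gene Rhob at 0.14. That count was 109 with DESeq2, 7 with limma-voom and 1 to 5 with 1 library left out. Of the 52 pathway genes 23 were positive along Hmox1. With Nfe2l2, 361 genes passed (1.97%), none of them among the 9. Of the 52 other pathway genes 1 passed, a share close to the 1.97% of all genes. It was Maff, a small MAF partner of NRF2, which rose by 0.34 per SD (SE 0.082, adjusted p = 0.031). That set of 361 rested on single mice: 5 genes passed without HET replicate 5, and 15 without the 3 libraries. With Keap1 no gene passed (6.68% at an unadjusted p under 0.05).

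Among 15351 genes with at least 1 CPM on average, those whose batch-centred log2 CPM ran most like each gene over the 24 mice were the following. Crem (r = 0.86) and Usp16 (0.85) ran with Nfe2l2, and Ints5 (0.72) and Sh3gl1 (0.71) with Keap1. Gsta3 (0.80) and Gstp1 (0.78) ran with Nqo1, and Gstp1 (0.77) and Mrps18a (0.77) with Gstm1. Slc22a26 (0.90) and Veph1 (0.89) ran with Gclc, and Wls (0.92) and Wwp1 (0.89) with Gclm. Tbc1d22b was among the first 2 for both Txnrd1 (0.77) and Srxn1 (0.70), joined by Tmem19 (0.74) and Elovl2 (0.74). Gm20634 (0.85) and Mpzl3 (0.82) ran with Hmox1. Of these, Gsta3 and Gstp1 belong to the listed pathway genes, as glutathione transferase genes.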

How the data were processed

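RNA of 24 mouse kidneys was sequenced from mRNA libraries, and the labels name fastp, STAR and featureCounts with the builds GRCm38 and mm10, per the submitters' processing notes. The deposited table holds estimated counts per gene, of which 11.8% to 15.4% per library were not whole (tolerance 0.001); they were rounded. The authors also deposited TPM, used only in alternatives, and FPKM, used only for levels between genes. No source used here gives versions or the strand setting.

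Genes with enough counts (edgeR filterByExpr, minimum count 10) numbered 18339 and held 99.9% of counts. Tests used edgeR 4.0.16 in R 4.3.3 (TMM, robust quasi-likelihood, Benjamini-Hochberg adjustment over all genes, threshold 0.05) with batch and genotype as terms. CPM used TMM library sizes, and log2 CPM a prior count of 2. Permutations for correlations stayed within batch (100000 draws, two-sided). DESeq2 1.42.0, limma 3.58.1 (voom, and log2 TPM with pseudocounts of 1 and 0.1), other injury scores and leaving out libraries were alternatives, run for the values the text names. Fits were tested on simulated data. No 2 libraries of a group agreed within sampling noise (lowest chi-square per degree of freedom 9.61 over 61 pairs). Each sample is labelled as its own mouse, and litters are not given. The title of HET replicate 8 carries another animal number than its library name and columns, which match, and it was mapped by those.

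The 9 genes, gene lists and tests were chosen with earlier results of these data known, and the 3 libraries left out were picked by their Nbl1 and Htr6 values there. Slopes on single genes' levels and on cell type scores, leaving out HET replicate 11 and the looser promoter letters were added after the data were seen. Named genes are the 9, in each pathway list the 2 of smallest p for HET against WT and for injury in each direction, the 2 most correlated with each of the 9, Havcr1, Lcn2 and Nbl1; others were named after their values were seen. Gpx2 and Gstm3 of 54 listed pathway genes had too few counts to test. Gene positions are from the GENCODE annotation of GRCm38.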

Additional observations from a re-analysis of the deposited data

Results flagged for a closer look

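Of 36 groups of 5 to 7 mice (9 genes, 2 genotypes, 2 batches), 3 held a mouse far from the others by Dixon's test, which chance does in about 1 in 20 groups. Keap1 stood at 28.062 CPM in HET replicate 9 of batch 2, below the other 6 mice of its group at 32.4 to 34.3 CPM. Gclm stood at 300.01 CPM in WT replicate 11 of batch 2, above the other 4 at 246.05 to 260.27 CPM. Gstm1 stood at 483.88 CPM in HET replicate 11 of batch 2, above the other 6 at 312 to 381 CPM; the same mouse had the highest Nqo1.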

How the results depend on the processing

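The main fits called none of the 9 genes for the HET effect or the injury slope, over all mice or within batch. Alternative settings and left-out libraries gave 1143 single-gene values of these effects, and none was called (smallest adjusted p 0.0875). For the injury slope within batch, these values covered only Nqo1, Gstm1, Hmox1, Gclc and Gclm. The text's single values took the other sign in 89 of 816 alternative values, none of them called on either side. Most came from limma on deposited TPM, where the median of all genes in batch 2 shifted to -0.110 for HET against WT. No paired analysis was possible because the labels give neither replicate numbers nor litters, and the replicate numbers used here only name the mice.

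On log2(TPM + 1), with log2(TPM + 0.1) in brackets where it rounds differently, HET against WT turned to Nfe2l2 -0.0077 (-0.0067), Gclm -0.030, Txnrd1 -0.029 (-0.030), Gstm1 -0.030, Gss -0.016, Prdx1 -0.014, Txn1 -0.020 and Fth1 -0.0039 over all mice, to Txnrd1 0.019 and Gstm1 0.015 in batch 1 and to Nfe2l2 -0.13, Nqo1 -0.071 (-0.072), Hmox1 -0.038 (-0.039), Gclm -0.015, Txnrd1 -0.079 (-0.080), Srxn1 -0.076 (-0.079) and Gstm1 -0.076 (-0.077) in batch 2. Injury slopes turned to Nfe2l2 0.045 (0.046), Keap1 0.062 (0.067), Gclm 0.024, Txnrd1 0.023 (0.024), Srxn1 0.046 (0.048), Mafg 0.0088 (0.0089), Gss 0.00078 (0.00081), Gsr 0.0083, Prdx1 0.014, Fech 0.0030 (0.0028) and Fth1 0.014 over all mice and to Gstm1 0.043 and Gclm 0.0094 in batch 2. HET against WT for Srxn1 over all mice was 0.00083 with limma-voom and 0.033 without a batch term. Injury slopes turned with limma-voom to Gclc -0.0032, without a filter to Nfe2l2 0.00028 and without a genotype term to Gclc -0.0091. Without the 3 libraries they turned to Gclc -0.0033 and, in batch 1, Hmox1 -0.0087, HET against WT in batch 1 to Hmox1 -0.083, and Nfe2l2 on the Keap1 level to -0.0057. With a fibrosis score in place of injury, slopes turned to Gclc -0.084 over all mice, Gclc -0.097 in batch 1 and Gstm1 0.012 and Gclc 0.0090 in batch 2. With Havcr1 alone they were Hmox1 -0.0021, Gclc -0.054 and Maff -0.043, and in batch 1 Hmox1 -0.019. With Lcn2 alone they were Hmox1 -0.018, Gclc -0.037 and Maff -0.094, and in batch 1 Hmox1 -0.061. With the proximal tubule score as a covariate they were Nfe2l2 0.011, Keap1 0.0074, Txnrd1 0.0025, Srxn1 0.041 and Mafg 0.024, in batch 1 Gclm -0.038 and in batch 2 Nqo1 0.0036 and Gstm1 0.033. The causes of these turns were not tested.

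Leaving out 1 library at a time turned these values, given as lowest to highest. HET against WT: Gclm -0.0067 to 0.036, Srxn1 -0.032 to 0.019 and Gstm1 -0.013 to 0.042 over all mice, Nqo1 -0.054 to 0.052, Hmox1 -0.016 to 0.11 and Gclc -0.22 to 0.019 in batch 1 and Nfe2l2 -0.0057 to 0.039 in batch 2. Injury slopes: Nfe2l2 -0.010 to 0.0028, Keap1 -0.010 to 0.0037, Gclc -0.041 to 0.039, Srxn1 -0.020 to 0.011 and G6pdx -0.0055 to 0.019 over all mice, Hmox1 -0.010 to 0.038 and Gclm -0.00023 to 0.024 in batch 1 and Gstm1 -0.049 to 0.013 and Gclc -0.17 to 0.0016 in batch 2. Nfe2l2 on the Keap1 level ran from -0.0098 to 0.058.

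Counts over all genes moved as follows. HET against WT called 0 genes over all mice and 2 without the 3 libraries. These 3 were picked by their Nbl1 and Htr6 values in these data, so HET calls without them are not an independent check. In batch 1 HET against WT called 0, but 1 with DESeq2, 1 without a filter and 2 without the 3 libraries. In batch 2 it called 1, but 26 with DESeq2, 3 without a filter, 0 on log2(TPM + 1) and 1 to 3 with 1 library left out. The interaction called 0 to 1 with 1 library left out. The injury slope called 225 genes, but 470 with DESeq2, 448 with the fibrosis score, 368 with Havcr1, 10 with the proximal tubule covariate, and 131 (without WT replicate 11) to 379 (without HET replicate 9). In batch 1 it called 23, but 92 with DESeq2, 37 without a filter, 9 and 8 on the TPM scales, 35 without the 3 libraries, 5 with fibrosis, 40 with Havcr1, 6 with Lcn2, 4 with the covariate and 3 to 23 with 1 library left out. In batch 2 it called 14, but 176 with DESeq2, 57 without a filter, 88 with fibrosis, 44 with Havcr1, 27 without a genotype term, 4 with the covariate and 10 to 68 with 1 library left out. The batch comparison called 11645 genes, and 11315 to 11687 with 1 library left out. Slopes on single genes' levels called 361 genes for Nfe2l2, 0 for Keap1, 2 for Nqo1, 3 for Hmox1, 726 for Gclc, 1802 for Gclm, 0 for Txnrd1, 1 for Srxn1 and 1 for Gstm1. With DESeq2 these were 860, 2, 10, 109, 1241, 2337, 17, 1 and 9, and without the 3 libraries 15, 0, 2, 2, 395, 887, 0, 0 and 1.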
